A study of Rattus norvegicus with 18 samples.

Results

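A set of 10 genes of the endoplasmic reticulum (ER) folding machinery were followed in the blood mononuclear cells of rats fed 3 diets: Hspa5, Hsp90b1, Calr, Canx, Pdia3, Pdia4, Pdia6, Dnajc3, Dnajb11 and Atf6. The members were all probes whose gene name in the scanner files equals one of these symbols, with Hsp90b1 listed there under its older name Tra1. That gave 10 genes of the 16774 that could be matched to RefSeq, and 11 probes of the 41012 on the array, 2 of them for Hsp90b1. All 11 passed the filter on dim probes, as did 25207 of all probes. The measure was the log2 ratio of a rat's RNA, labelled Cy5, to a Cy3-labelled pool of the samples, so a value of 0 is the level of the pool and a log2 value of 1 is a doubling.

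The cells (PBMC) are the white blood cells with a round nucleus, chiefly lymphocytes and monocytes, that a Ficoll gradient separates from blood. They came from 18 adult male Wistar rats, 6 per diet and 1 rat per array. Diets began at 2 months of age and ran for 4 months, and blood was taken after a fast of 14 h. The low-fat control diet (LFD) supplied 70% of energy as carbohydrate, 10% as fat and 20% as protein and was eaten freely. The high-fat diet (HFD) supplied 20%, 60% and 20%, the high-protein diet (HPD) 45%, 10% and 45%, mainly as casein, and both were given in amounts that matched the energy eaten on LFD. Heparin was the anticoagulant in every group. One array titled as an HFD animal carries HPD in its source name and description and was counted as HPD replicate 7.

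The ER is where secreted and membrane proteins fold, and blood cells that secrete cytokines, granules or antibody rely on it. When unfolded protein builds up there, the sensors Atf6, Ern1 (IRE1) and Eif2ak3 (PERK) start the unfolded protein response, in which Atf6 and Xbp1 raise transcription of chaperone genes through the ER stress response element (ERSE). The genes followed here are among the classical targets of that response, together with Atf6 itself.

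The element could be read in the RefSeq promoters (build GRCr8, from 250 bases before to 50 after the annotated start). Its part in the members' values was not tested. Promoters of 7 of the 10 genes were in the table, and those of Pdia3, Pdia6 and Atf6 were not analysed here. ERSE, searched on both strands as CCAAT and CCACG with 9 bases of any kind between them, was found in 5 of the 7, against 22 of 33469 promoters in all (0.0657%). ERSE-II, searched in the same way as ATTGG and CCACG with 1 base between them, was found in 1 of the 7 and in 17 of 33469 (0.0508%). The letters TGACGTGG, another reported target of the response, were in 0 of the 7 and in 199 of all promoters (0.595%). The shorter core CCACG, part of both elements, was in all 7 and in 31.6% of all promoters. The member promoters with an element are printed 5′ to 3′, with ERSE or ERSE-II in capitals (a match on the other strand reads as its reverse complement), and that of Pdia4, which holds neither, is printed beside them.
Hspa5, chr3:38452766-38453065, plus strand: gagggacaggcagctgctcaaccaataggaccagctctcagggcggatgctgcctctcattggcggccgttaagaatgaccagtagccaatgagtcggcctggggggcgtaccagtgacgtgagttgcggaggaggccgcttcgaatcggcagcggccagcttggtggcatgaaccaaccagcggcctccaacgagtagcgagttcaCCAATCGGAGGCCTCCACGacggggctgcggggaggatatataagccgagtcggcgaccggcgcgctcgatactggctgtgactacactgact
Hsp90b1, chr7:23012244-23012543, minus strand: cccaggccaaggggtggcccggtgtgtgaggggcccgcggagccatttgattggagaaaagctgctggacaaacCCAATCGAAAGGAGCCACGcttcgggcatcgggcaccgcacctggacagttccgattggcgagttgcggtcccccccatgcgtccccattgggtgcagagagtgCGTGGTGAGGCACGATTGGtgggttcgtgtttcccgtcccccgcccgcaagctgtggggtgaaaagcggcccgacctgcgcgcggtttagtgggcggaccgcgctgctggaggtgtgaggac
Calr, chr19:40213117-40213416, plus strand: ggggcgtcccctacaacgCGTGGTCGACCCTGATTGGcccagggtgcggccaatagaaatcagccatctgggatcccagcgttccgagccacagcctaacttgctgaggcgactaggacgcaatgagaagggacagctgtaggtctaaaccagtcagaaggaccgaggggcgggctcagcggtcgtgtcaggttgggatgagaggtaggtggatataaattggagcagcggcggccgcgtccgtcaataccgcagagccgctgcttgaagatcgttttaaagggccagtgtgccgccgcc
Dnajc3, chr15:102432417-102432716, plus strand: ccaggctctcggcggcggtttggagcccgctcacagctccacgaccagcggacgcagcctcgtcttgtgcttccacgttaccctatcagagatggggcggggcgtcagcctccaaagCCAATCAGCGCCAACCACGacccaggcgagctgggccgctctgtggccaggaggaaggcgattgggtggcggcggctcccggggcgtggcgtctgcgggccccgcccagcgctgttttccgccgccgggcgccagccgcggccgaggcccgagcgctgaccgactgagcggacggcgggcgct
Dnajb11, chr11:91672751-91673050, minus strand: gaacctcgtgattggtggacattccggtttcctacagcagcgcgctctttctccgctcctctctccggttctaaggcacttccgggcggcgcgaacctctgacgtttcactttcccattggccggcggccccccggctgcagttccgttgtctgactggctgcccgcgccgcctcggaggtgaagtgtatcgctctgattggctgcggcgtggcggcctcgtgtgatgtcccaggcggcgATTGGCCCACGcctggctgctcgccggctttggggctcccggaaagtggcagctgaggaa
Pdia4, chr4:78153142-78153441, minus strand: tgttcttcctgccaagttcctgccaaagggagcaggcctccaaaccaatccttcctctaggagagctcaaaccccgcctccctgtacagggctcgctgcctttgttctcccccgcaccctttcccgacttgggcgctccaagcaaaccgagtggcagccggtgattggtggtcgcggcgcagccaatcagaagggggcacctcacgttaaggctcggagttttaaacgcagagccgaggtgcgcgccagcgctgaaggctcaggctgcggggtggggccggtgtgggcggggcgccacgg
Hspa5 holds 1 ERSE, from 43 to 25 bases before the start. Hsp90b1 holds 2, from 176 to 158 bases before the start on the strand of the gene and from 72 to 54 bases before it on the other. Calr has its match on the other strand, from 232 to 214 bases before the start, and Dnajc3 on the strand of the gene, from 133 to 115 bases before it. Canx, not printed, has ERSE from 230 to 212 bases before the start. In Dnajb11 the match is to ERSE-II, and it runs from 10 bases before the start to the start itself. A match to these letters is a description of the sequence and not a measured binding site. Since the members are among the classical targets of the response, their share of promoters with an element is not a test.

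A pair of arrays stood apart in the spread of their values over all probes, and this touches every member. Over all probes tested, the log2 ratios had a median absolute deviation of 0.581 on LFD replicate 2 and 0.623 on LFD replicate 6, against a median of 0.338 over the arrays. Their log2 ratios correlated at -0.50 over all probes tested although both rats ate LFD and the labels state the same dyes for every array. The direction was kept as the labels give it, and the differences from LFD are given below also without LFD replicate 6 and with its sign turned. The 18 arrays lay on 5 slides, as the array barcodes give them, with slide 1 holding 2 LFD and 2 HFD arrays and no HPD array. The median Cy5 signal per array was 61.5 to 84.3 intensity units, and 53.1 to 63.4% of probes gave a Cy5 signal well above background. Markers of the labelled cells were present, with 11 of 11 T cell, 8 of 8 B cell, 10 of 10 natural killer (NK) cell and 11 of 12 monocyte markers named on the array passing the filter. Markers of other blood cells passed as well, with 10 of 10 platelet, 10 of 10 erythroid and 5 of 10 neutrophil markers. Each member probe was well above background on all 18 arrays and saturated on 0. Their Cy5 levels differed widely. The dimmest were Canx at 31 to 168, Pdia4 at 68 to 347 and Dnajb11 at 91 to 291, and the brightest was Hspa5 at 13832 to 28310.

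Hspa5 encodes BiP, the ER chaperone of the HSP70 family that also holds the stress sensors inactive. It had the narrowest spread of the 11 probes, with an SD of 0.213 over the 18 arrays. Its log2 ratio ran from -0.43 to 0.19 on LFD (median -0.03), from -0.22 to 0.10 on HFD (median -0.04) and from -0.49 to 0.28 on HPD (median -0.19). The 3 diets overlapped over most of this range. HFD differed from LFD by 0.02 (SE 0.135, 95% interval -0.26 to 0.31) and HPD from LFD by -0.10 (SE 0.135, interval -0.38 to 0.18).

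Hsp90b1 encodes GRP94, the HSP90 of the ER, which folds integrins and Toll-like receptors in immune cells. With 2 arrays marked for outlier spots and left out, its brighter probe ran from -0.73 to 0.99 on LFD (median -0.45, n = 5), from -0.40 to 0.74 on HFD (median 0.03, n = 6) and from -0.94 to -0.05 on HPD (median -0.36, n = 5). The highest values, 0.99 in LFD replicate 2 and 0.74 in HFD replicate 2, were both on slide 1. HPD lay 0.49 below HFD on the log2 scale (difference -0.49, SE 0.305, interval -1.13 to 0.16), or -0.13 with slide as a block, and the groups overlapped. The second probe correlated with the first at r = 0.72 over 16 arrays but spread less, with an SD of 0.243 against 0.541. For that probe HPD differed from HFD by -0.16 (SE 0.148, interval -0.47 to 0.16).

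Calr and Canx encode calreticulin and calnexin, the lectin chaperones that hold newly glycosylated proteins until they fold. Calr ran from -0.85 to 0.76 on LFD (median -0.20), from -0.11 to 0.43 on HFD (median 0.08) and from -0.84 to 0.14 on HPD (median -0.11). Its lowest values were LFD replicate 6 at -0.85 and HPD replicate 7 at -0.84, and the LFD rats covered the whole range of the HFD rats. Canx ran from -0.59 to 0.56 on LFD (median 0.03), from -0.41 to 0.42 on HFD (median -0.02) and from -0.50 to 0.09 on HPD (median -0.10). HPD differed from HFD by -0.27 for Calr (SE 0.234, interval -0.76 to 0.22) and by -0.12 for Canx (SE 0.198, interval -0.54 to 0.30), or by -0.11 and -0.05 with slide as a block.

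Pdia3, Pdia4 and Pdia6 encode protein disulfide isomerases, which form and reshuffle disulfide bonds, and Pdia3 (ERp57) works with calreticulin and calnexin and in the loading of MHC class I molecules. Pdia3 ran from -1.74 to 1.18 on LFD (median -0.24), from -0.23 to 0.44 on HFD (median 0.10) and from -0.56 to 0.32 on HPD (median -0.32). Both of its extremes were LFD rats, replicate 6 at -1.74 and replicate 2 at 1.18, so that its LFD values had an SD of 1.02 against 0.255 on HFD and 0.353 on HPD. Pdia4 showed the same extremes, with -1.24 in LFD replicate 6 and 1.17 in LFD replicate 2, and ranged from -0.95 to 0.71 on HFD (n = 5) and from -0.83 to 0.42 on HPD. Pdia6 ran from -0.70 to 0.62 on LFD (median -0.31), from -0.27 to 0.37 on HFD (median -0.07) and from -0.46 to 0.15 on HPD (median -0.35). The diets overlapped for all 3 isomerases. The difference of HFD from LFD was 0.20 for Pdia3 (SE 0.348, interval -0.54 to 0.93), 0.03 for Pdia4 (SE 0.397, interval -0.81 to 0.87) and 0.05 for Pdia6 (SE 0.209, interval -0.39 to 0.49). These values moved with slide and with 1 rat. For Pdia4 the difference was -0.46 with slide as a block and 0.47 without slide 1. For Pdia3 it was 0.13 and 0.60, and for Pdia6 -0.02 and 0.28. Without LFD replicate 6 it was -0.13 for Pdia3, -0.18 for Pdia4 and -0.08 for Pdia6.

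Dnajc3 and Dnajb11 encode J-domain co-chaperones that drive the ATPase cycle of BiP, and Dnajc3 (p58IPK) also restrains PERK. Dnajc3 ran from -0.51 to 0.78 on LFD (median 0.04), from 0.06 to 0.59 on HFD (median 0.08) and from -0.23 to 0.14 on HPD (median -0.19). All 6 HPD rats lay below the HFD mean of 0.18, yet HPD replicate 3 at 0.14 was above the lowest HFD rats at 0.06, so the groups overlapped. The difference of HPD from HFD was -0.29 (SE 0.169, interval -0.64 to 0.07), or -0.15 with slide as a block. Dnajb11 ran from -0.70 to 0.93 on LFD (median 0.26, n = 5), from -0.22 to 0.33 on HFD (median 0.07) and from -0.62 to 0.14 on HPD (median -0.18). All 6 HPD rats lay below the LFD mean of 0.24, and LFD replicate 6 at -0.70 lay below every HPD rat. The difference of HPD from LFD was -0.47 (SE 0.229, interval -0.95 to 0.02), with the smallest p among the members, 0.0572 before and 1 after limma's adjustment over all probes. Without the 4 arrays of slide 1 it was -0.10, from 3 LFD rats, and without LFD replicate 6 it was -0.70.

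Atf6 encodes the membrane-bound transcription factor that is cut and sent to the nucleus under ER stress. It ran from -0.44 to 1.26 on LFD (median -0.18), from -0.09 to 0.56 on HFD (median 0.20) and from -0.16 to 0.36 on HPD (median -0.06). Its highest value, 1.26, was in LFD replicate 6, the rat with the lowest value of 7 of the other 9 genes. The next highest LFD value was 0.10. HFD differed from LFD by 0.22 (SE 0.228, interval -0.26 to 0.69), by 0.46 without LFD replicate 6 and by 0.03 without slide 1.

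**Figure D1:**
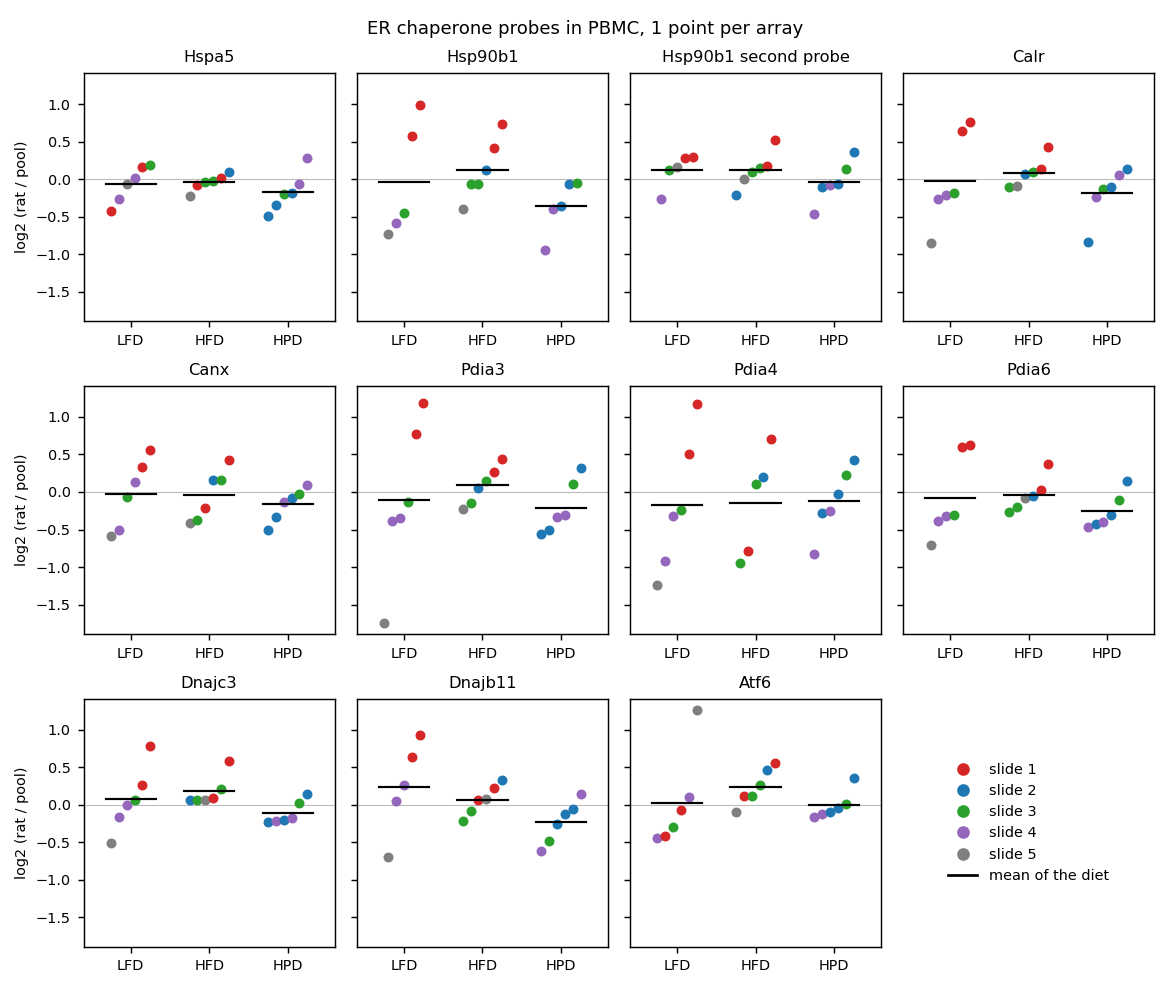
Log2 ratio of each rat to the pool (vertical axis) by diet for the 11 probes, 1 point per array coloured by slide, with a bar at the mean of the diet. The diets overlap in every panel, and the highest value lies on slide 1 for 9 of the 11. LFD holds the widest spread, from -1.74 to 1.18 for Pdia3, except for Hspa5 and the second Hsp90b1 probe, which spread most on HPD.

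By diet, 0 of the 11 member probes passed limma's test at an adjusted p of 0.05 in any of the 3 comparisons. The background was also 0: 0% of 25177 probes for HFD vs LFD, 0% of 25171 for HPD vs LFD and 0% of 25170 for HPD vs HFD. At an unadjusted p under 0.05 there were 0 of 11 members in each comparison, against 2.11%, 3.06% and 3.15% of all probes. The adjusted p of the members was 0.995 to 1, and the moderated F test for any diet called 0 members and 0 of 25164 probes, with 630 probes (2.5%) and 0 members at an unadjusted p under 0.05. The standard errors were 0.135 to 0.397, and the outer bounds of the 95% intervals were -1.13 and 0.93, so changes of up to about a doubling remain within the interval for the most variable members. For Hspa5 all 3 intervals lay between -0.41 and 0.31.

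The direction of the uncalled differences was mostly shared in the comparisons with HPD. HPD lay below LFD for 10 of 11 probes, with a median difference of -0.15, where 46.3% of all probes lay below 0. Against HFD it also lay below for 10 of 11 probes, with a median of -0.25, where 47.5% of all probes did. Pdia4 was the probe above 0 in both. These comparisons share the HPD arrays, and the probes rise and fall together over the arrays, so the 11 directions are not independent. HFD lay above LFD for 8 of 11 probes, with a median of 0.05, where 51.5% of all probes were above 0. That count changed with single arrays. With the array of conflicting labels counted as HFD, HFD lay above LFD for 5 probes and below for 6. Without LFD replicate 6, HFD lay above LFD for 3 probes and below for 8, with a median of -0.06, and with its sign turned above for 2 and below for 8, with a median of -0.18. HPD lay below LFD for 10 of 11 in both settings, with medians of -0.30 and -0.37. Turned, the difference of HFD from LFD was -0.38 for Pdia3 and Pdia4 and 0.64 for Atf6, and that of HPD from LFD was -0.69 for Pdia3, -0.75 for Dnajb11 and 0.39 for Atf6.

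Markers of some cell types, but not of all, lay mostly in the same direction in the comparisons with HPD. All 10 NK and cytotoxic markers tested lay below 0 for HPD vs LFD (median -0.18) and for HPD vs HFD (median -0.28). All 10 erythroid markers did so too (medians -0.68 and -0.66), as did 10 of 11 monocyte markers (medians -0.29 and -0.41). Of the 10 platelet markers, 9 and 8 lay below 0 (medians -0.72 and -0.28). For 11 T cell markers it was 7 and 5, and for 8 B cell markers 4 and 4. For 8 plasma cell markers it was 4 and 2, for 5 neutrophil markers 3 and 2, and for 2 dendritic cell markers 1 and 2. Slide 1 held no HPD array and had higher list means, at 1.08 for erythroid, 0.46 for monocyte and 0.45 for NK markers. On the other slides these were -0.31, -0.12 and -0.13. With slide as a block, not all NK markers stayed below 0 for HPD vs LFD. Gzmm was at 0.09, Klrd1 at 0.01 and Prf1, with too few arrays for a correlation, at 0.52. All 10 erythroid markers stayed below 0 there, from Hbb at -1.21 to Alas2 at -0.09. No marker was called in these comparisons, and the part of the other cell types in the members' directions was not tested.

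The directions of HPD changed little with slide as a block and those against LFD changed more without slide 1. With slide as a fixed block in the model, HPD lay below LFD and below HFD for 9 of 11 each. HFD lay above LFD for 6 of 11, and 0 were called. With slide as a random block, HPD lay below LFD for 10 of 11. Without the 4 arrays of slide 1, HPD lay above LFD for 7 of 11 and below HFD for 10 of 11. That setting also leaves out LFD replicates 1 and 2, so slide and these rats cannot be told apart. Within slides that held both diets, the median over the probes of HPD minus LFD was 0.12 on slide 3 (1 rat against 1) and 0.03 on slide 4 (2 against 2). HPD minus HFD had a median of -0.33 on slide 2 (3 against 1) and 0.01 on slide 3 (1 against 2). HFD minus LFD had a median of -0.33 on slide 1 (2 against 2), 0.07 on slide 3 (2 against 1) and 0.45 on slide 5 (1 against 1).

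**Figure D2:**
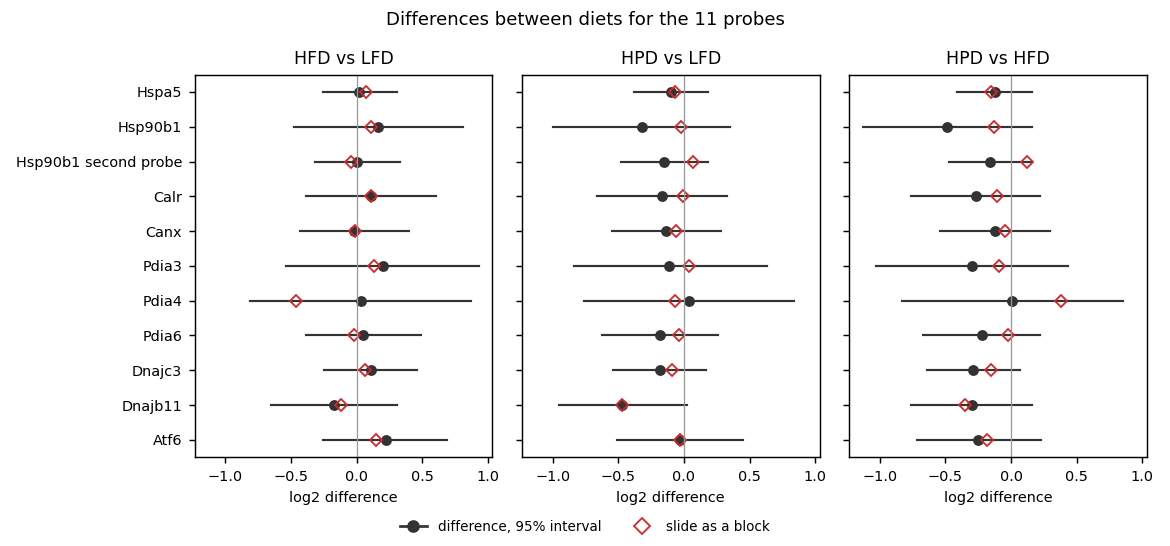
Log2 difference between diets (horizontal axis) for each of the 11 probes in the 3 comparisons, as filled points with 95% intervals from the model with diet alone, and as open diamonds with slide as a block. Every interval includes 0, and the diamonds of the comparisons with HPD lie nearer 0 than the points for Hsp90b1, Calr, Pdia3 and Pdia6.

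The members were also compared between slides. In a limma F test for slide with diet in the model, 0 of 11 members passed at an adjusted p of 0.05, where 65 of 24866 probes did (0.261%, and 0 to 2828 probes with 1 array left out), and 7 of 11 had an unadjusted p under 0.05, where 22.4% of all probes did. The brighter Hsp90b1 probe had the smallest adjusted p, 0.0634. Its slide 1 arrays ran from 0.41 to 0.99 and all lay above every other array, at -0.94 to 0.12, a separation that 1.73% of all probes tested showed. Its mean was 0.68 on slide 1 and -0.10, -0.16, -0.65 and -0.56 on slides 2 to 5. The second Hsp90b1 probe (adjusted p 0.199) did overlap, at 0.17 to 0.52 on slide 1 and -0.46 to 0.36 on the others. Pdia6 (adjusted p 0.112) averaged 0.41 on slide 1 and -0.39 on slides 4 and 5. Pdia3 (adjusted p 0.116) averaged 0.67 on slide 1, -0.34 on slide 4 and -0.99 on slide 5. Hspa5 (adjusted p 0.83) had slide means between -0.23 and 0.00, and Atf6 (adjusted p 0.618) between -0.15 and 0.59. Slide 5 held only LFD replicate 6 and HFD replicate 5, so its means rest on those 2 rats.

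**Figure D3:**
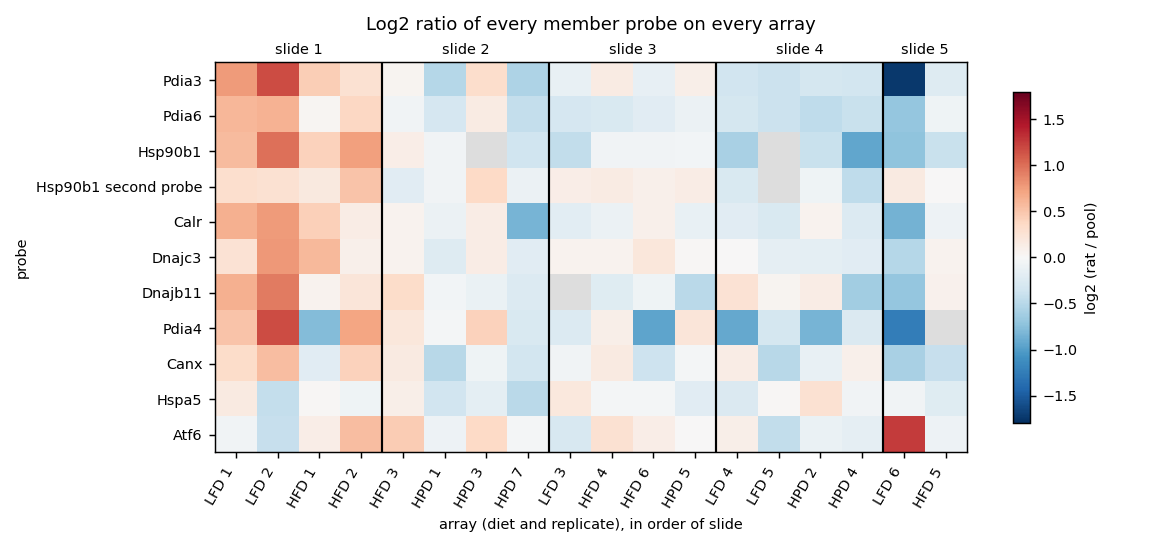
Log2 ratio (colour) of the 11 probes (rows) on the 18 arrays (columns), ordered by slide, with grey cells for spots marked as outliers. The 8 genes other than Hspa5 and Atf6 (Hsp90b1 by its brighter probe) are all at 0.26 or more on LFD 1, at 0.56 or more on LFD 2 and at -0.51 or less on LFD 6, while Hspa5 stays between -0.49 and 0.28 and Atf6 reaches 1.26 on LFD 6.

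Across the 18 arrays the members fell into a group of 8 genes and 2 genes outside it, Hspa5 and Atf6. This grouping was read from the same correlations, so the counts within it are not a separate test. Of the 45 pairs of genes, 26 had a Pearson correlation that passed at a Benjamini-Hochberg adjusted p of 0.05 (two-sided permutation test, 100000 resamples), and all 26 were among the 28 pairs of Hsp90b1, Calr, Canx, Pdia3, Pdia4, Pdia6, Dnajc3 and Dnajb11. In those 28 pairs r ran from 0.49 to 0.90, with a median of 0.74. By Spearman's rho 19 of them passed. Hsp90b1 and Pdia6 had r = 0.90 and rho = 0.88 over 16 arrays (permutation p 1e-05, the smallest the resamples can give, adjusted 0.000112). Calreticulin and its partner isomerase Pdia3 had r = 0.89 and rho = 0.85 over 18 arrays (permutation p 1e-05 and 3e-05, adjusted 0.000112 and 0.000193). Calr and Canx, the 2 lectin chaperones, had r = 0.62 and rho = 0.47 (permutation p 0.00548 and 0.0522, adjusted 0.0112 and 0.0903).

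Hspa5 stood outside this group. Its 9 pairs had r from -0.25 to 0.20, with 0 passing, 0 at an unadjusted permutation p under 0.05 and the smallest adjusted p at 0.443. In the authors' deposited table of log2 values its 8 pairs with the group had r from -0.67 to -0.18, and 3 of its pairs passed. Atf6 had r from -0.45 to 0.07 with the others, with 0 of 9 passing. That sign rested on 1 rat: the median r of Atf6 with the 8 genes was -0.30 over all arrays and 0.085 without LFD replicate 6, and without both LFD replicates 2 and 6 it was 0.44.

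The correlations were lower when slide or the arrays of widest spread were taken out. With slide means removed, the median r of the 28 pairs was 0.57 (range -0.07 to 0.85) and 0 of 45 pairs passed under permutation within slides, where the smallest adjusted p was 0.118 and 14 pairs had an unadjusted p under 0.05. Pdia3 and Pdia6 kept r = 0.85, Hsp90b1 and Dnajb11 0.82, and Calr and Pdia3 0.79 in that setting. Removing diet means alone left the median at 0.75. Leaving out the 2 arrays farthest from the median of the first gene gave a median of 0.58 (range 0.00 to 0.88), and without slide 1 9 of the 45 pairs passed, with a median of 0.52 in the 28. Without LFD replicates 2 and 6, 9 pairs also passed, with a median of 0.56. Pdia4 and Dnajc3, at r = 0.49 over 17 arrays, were at 0.00 without their 2 farthest arrays.

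Correlations this high were common on these arrays. A value of r of at least 0.7 with Pdia3 was found for 7 of the other 9 members and for 10.6% of 24884 probes. For Pdia6 the numbers were 7 of 9 and 10.5%, for Hsp90b1 6 of 9 and 10.4%, for Calr 5 of 9 and 8.14%, for Pdia4 4 of 9 and 8.58%, and for Dnajb11 4 of 9 and 6.14%. Dnajc3 reached it with 4 of 9 members and 5.81% of probes, and Canx with 3 of 9 and 2.22%. Hspa5 reached it with 0 of 9 members and 0.836% of probes, and Atf6 with 0 of 9 and 0.502%. All points share the Cy3 pool, the slides and the 2 arrays of wide spread. Each channel was also read alone. The SD of the normalized log2 signal of the 8 genes was 0.246 to 0.529 in Cy5 and 0.142 to 0.348 in Cy3. As a ratio, the 2 SDs were widest apart in Hsp90b1 (0.427 and 0.142) and closest in Dnajc3 (0.437 and 0.348) and Pdia6 (0.246 and 0.188). For Pdia4 the SD was 0.529 in Cy5 and 0.202 in Cy3. For Hspa5 it was 0.233 in Cy5 and 0.249 in Cy3. In Cy5 alone 11 of the 45 pairs passed, with a median r of 0.52 in the 28.

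**Figure D4:**
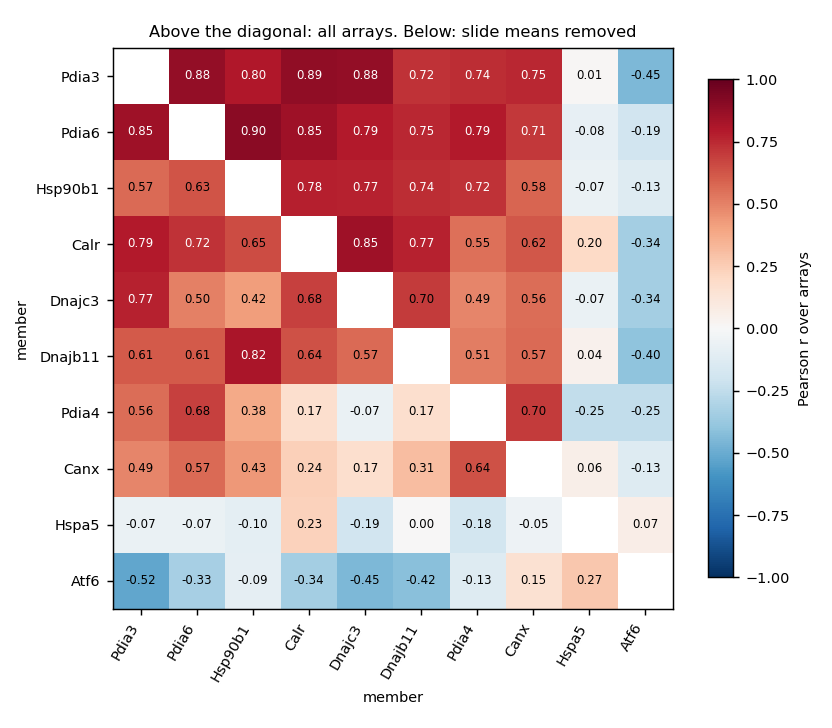
Pearson r over arrays for each pair of the 10 genes (both axes), above the diagonal over all arrays and below it with slide means removed, coloured from -1 to 1. The 8 genes at the top left are at 0.49 to 0.90 above the diagonal, where the columns of Hspa5 and Atf6 are at -0.45 to 0.20.

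The mean of the 10 members, each centred over the arrays, was highest on LFD replicate 2 (0.66) and LFD replicate 1 (0.49) and lowest on LFD replicate 6 (-0.54). On the other 15 arrays it lay between -0.33 and 0.39. The 6 genes most like this mean after slide means were removed were Brd1 (r = 0.95 with slide means removed and 0.92 without), Sesn1 (0.94 and 0.90, over 14 arrays), Celf1 (0.93 and 0.95), Cdk9 (0.93 and 0.93), Cd2 (0.93 and 0.80) and Sbds (0.93 and 0.94). Cd2 is a T cell surface receptor, Cdk9 the kinase of the elongation factor P-TEFb, and Sbds a ribosome maturation factor. Over all probes tested, 21.2% had r of at least 0.5 with the members' mean and 21.9% had r of at most -0.5.

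Markers of some cell types correlated with the same mean. Fewer cells of a type and less RNA per cell cannot be told apart in bulk samples. The mean of 10 NK and cytotoxic cell markers correlated with the members' mean at r = 0.69 (0.56 with slide means removed), led by Ncr1 (0.85) and Eomes (0.82). Of these 10 markers 6 had r of at least 0.5, as did 21.2% of all probes. Klrb1a (-0.01) and Klrb1b (0.05) did not follow, and Prf1 had no r. The list's mean ran from -0.57 to 0.73 on LFD, -0.23 to 0.50 on HFD and -0.59 to 0.36 on HPD. For 11 T cell markers the list's r was 0.57 (0.67 with slide means removed), with list means of -0.54 to 0.39, -0.32 to 0.14 and -0.27 to 0.34. Only 3 of 11 markers were at 0.5 or more, led by Cd2 and Cd8a (0.80 each), where 21.2% of all probes were. Cd4 was at 0.10, Lat at -0.04, Cd3g at -0.05 and Zap70 at -0.40, and Cd3d had no r. For 10 erythroid markers r was 0.64 and 0.02 with slide means removed, led by Fech (0.87) and Slc4a1 (0.69), with list means of -0.88 to 1.17, -1.19 to 1.19 and -1.06 to 0.15. Plasma cells, whose secretory load makes them rich in ER chaperones, did not follow it: their 8 markers had a list r of -0.29, with 0 at 0.5 or more and list means of -0.23 to 0.55, -0.41 to 0.46 and -0.39 to 0.26. For B cells r was 0.22, for monocytes 0.38, for platelets 0.03, for neutrophils 0.00 and for dendritic cells, with 2 markers tested, -0.15. The part of cell composition in the members' values was not tested.

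The wider ER pathway was read from lists of genes. Of 98 genes tested in 6 lists of ER function, 0 passed limma's test in any comparison, and at an unadjusted p under 0.05 there were 1 for HFD vs LFD, 0 for HPD vs LFD and 2 for HPD vs HFD. That is fewer than the 2.11%, 3.06% and 3.15% of all probes would give, so the genes named from these lists are a description. In the MHC class I peptide loading list, whose peptide-loading complex holds Calr and Pdia3, 8 of 11 genes were below 0 for HFD vs LFD (median -0.07), where 51.5% of all probes were above 0. Tapbp (tapasin, the bridge between that complex and the class I molecule) was at -0.26 (SE 0.105, p 0.0243, adjusted 1) and Tapbpl, which edits peptides, at -0.25 (SE 0.131). For HPD vs HFD 10 of 11 were above 0 (median 0.10), where 47.5% of all probes were below 0, with Tapbpl at 0.32 (SE 0.131, p 0.0244, adjusted 0.995). In the PERK, ATF4 and CHOP arm, 9 of 12 genes were below 0 for HPD vs HFD (median -0.04), led by the transcription factors Cebpb at -0.56 (SE 0.262) and Atf3 at -0.78 (SE 0.38). The stress marker Ddit3 (CHOP) was at -0.19 for HFD vs LFD (SE 0.249) and at -0.02 with slide as a block.

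Among UPR sensors and transcription factors, 5 of 10 genes were above 0 for HFD vs LFD and 4 of 10 for HPD vs LFD. Ern1 (IRE1) was at 0.22 (SE 0.186) and 0.17 (SE 0.186), and Mbtps2, the protease that makes the second cut in Atf6, at -0.63 (SE 0.424) and -0.52 (SE 0.404), or -0.72 and -0.14 with slide as a block. For 22 other folding enzymes and co-chaperones the medians were 0.00, -0.03 and -0.08 in the 3 comparisons. Fkbp2, an ER prolyl isomerase, was at 0.25 for HFD vs LFD (SE 0.173) and Hyou1, the ER HSP110, at 0.15 for HPD vs LFD (SE 0.155), or 0.23 with slide as a block. For 15 genes of ER-associated degradation the medians were 0.01, -0.04 and -0.04, with Edem1, which hands misfolded glycoproteins to degradation, at 0.25 for HFD vs LFD (SE 0.137), or 0.16 with slide as a block. For 28 genes of translocation and signal peptide removal they were 0.01, 0.00 and -0.02, with Tram1, a translocon protein, at -0.40 for both HPD vs LFD (SE 0.221) and HPD vs HFD (SE 0.199), or -0.07 and -0.16 with slide as a block.

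These lists differed in how far they followed the members over the arrays. The mean of the UPR sensors and transcription factors correlated with the members' mean at r = 0.90 (0.76 with slide means removed), with genes from Nfyc at 0.91 to Ern1 at -0.45. Of the sensors, Eif2ak3 (PERK) was at 0.84 (0.73) and Ern1 (IRE1) at -0.45 (-0.24). Of the 3 subunits of the NF-Y factor, which binds CCAAT, Nfyc was at 0.91, Nfyb at 0.87 and Nfya at 0.40. The translocation list had r = 0.76 (0.75), with Spcs2 at 0.88 and Tram1 at 0.86 but Ssr1 at -0.83 and Dad1 at -0.95. The other folding enzymes had 0.45 (0.47), with Txndc12 at 0.89, Erp44 at 0.86 and Fkbp11 at -0.88. The degradation list had 0.37 (0.37), with Edem2 at 0.85, Vcp at 0.84 and Ufd1 at -0.79. For peptide loading it was 0.33 (0.28), and for the PERK, ATF4 and CHOP arm -0.17 (-0.16). At r of at least 0.5, where 21.2% of all probes lay, there were 4 of 10 sensors and transcription factors (Nfyc, Nfyb, Eif2ak3 and Mbtps1). The other counts were 12 of 28 translocation genes, 7 of 22 folding enzymes, 5 of 15 degradation genes, 2 of 11 peptide loading genes and 1 of 12 genes of the PERK arm. At r of at most -0.5, where 21.9% of all probes lay, there were 0 of 10 sensors and transcription factors and 7 of 28 translocation genes. There were also 3 of 22 folding enzymes, 3 of 15 degradation genes, 0 of 11 peptide loading genes and 1 of 12 of the PERK arm.

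Other genes with an element in the promoter were spread widely around the members' pattern. Outside the members, 16 genes had ERSE and 9 of them were measured, with r to the members' mean from -0.85 to 0.92 and a median of 0.47. Ankmy2 was at 0.92 and Creld2, an ER stress-induced folding factor, at 0.68, while the ER oxidase Ero1b was at -0.69 and Birc5 (survivin) at -0.85. ERSE-II was in 16 further genes, 9 measured, with r from -0.80 to 0.83 and a median of 0.23. There Hyou1 was at 0.62 and Herpud1, a part of the ER degradation complex, at -0.73. Among the members themselves, Hspa5, which has ERSE, had r from -0.25 to 0.20 with the group of 8 genes. Pdia4, which has neither element in the printed promoter, is in that group, with r from 0.49 to 0.79 to the others. Atf6, whose promoter was not analysed, had r from -0.45 to -0.13 with the group. The part of the element in these correlations was not tested.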

How the data were processed

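RNA of 18 rats was hybridised to rat 4x44K arrays of 41012 probes, each rat in Cy5 against an equimolar Cy3 pool, per the labels' protocols. The submitters' processing notes name the scanner software, Agilent Feature Extraction, in version 10.5.1.1. The processed signals used here are intensity values that the scanner software corrected for spatial and multiplicative trends and dye-normalized, per the file headers, and mean and background signals served as alternatives. Spot flags mark outliers, saturation and signal above background, other numbers of 0 or 1, per the file headers. The deposited table of log2 values by the authors (20256 probes, column medians 8.4) correlated at 0.887 with the log2 ratios (slope 0.694), so its direction is that of Cy5 over Cy3. Its processing and centring are not given in the sources used here.

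From the processed intensities, log2(Cy5/Cy3) was taken per spot, with outlier spots set to missing, and averaged per probe. Probes well above background in Cy5 on at least 5 of 18 arrays were kept (25207). Group means over all 18 arrays were compared with limma 3.58.1 in R 4.3.3, with Benjamini-Hochberg adjustment over all probes and a threshold of 0.05. The limma fit was tested on simulated data. Intervals cover 95%, and the number of arrays limits the precision. Samples enter as separate rats, as the labels describe. Positions of probes are on rn4. Of all probes, 21503 matched a RefSeq gene of GRCr8.

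The members and gene lists were chosen with earlier results of these data known. The text names all members, the 2 genes with the smallest p per direction and comparison from each ER list (some are left out here), the 6 probes most like the members' mean, and the 2 markers that correlate most from lists that move with it. Genes of the ER lists named for their correlation, and genes with a promoter element, were named after their values were seen. Replicate numbers did not pair the rats: same-numbered arrays correlated at -0.323 to 0.241. Alternatives covered background correction, scaling, filters, slide, array weights, the array with conflicting labels, HFD replicates 1 and 6 averaged (the most alike arrays, r = 0.60) and each array left out.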

Additional observations from a re-analysis of the deposited data

Results flagged for a closer look

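Of 33 groups of 5 or 6 rats (11 probes in 3 diets), 3 held a rat whose distance to its nearest neighbour was a large share of the group's range by Dixon's test, where chance gives about 1 in 20 groups and 6.09% of 74650 groups over all probes tested did so. Dnajc3 stood at 0.59 in HFD replicate 1, with the other 5 HFD rats at 0.06 to 0.21 (gap over range 0.724). Atf6 stood at 1.26 in LFD replicate 6, with the other LFD rats at -0.44 to 0.10 (0.686). Atf6 also stood at 0.36 in HPD replicate 3, with the other HPD rats at -0.16 to 0.01 (0.669).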

How the results depend on the processing

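Under 34 alternatives (18 of them leaving out 1 array each), 0 member probes were called in any diet comparison, and the smallest adjusted p of a member was 0.253. Uncalled signs changed in 56 of 374 values for HFD vs LFD, in 29 for HPD vs LFD and in 11 for HPD against HFD. Many of these values could not change, since leaving out an array of the third diet or changing the filter leaves a difference as it was. Leaving out the conflicting array is also the same setting as leaving out HPD replicate 7. HFD vs LFD kept 0 called probes throughout. HPD vs HFD had 1 called probe without slide 1 and 0 to 1 with 1 array left out, the 1 being without HFD replicate 2, and HPD vs LFD had 1 with array quality weights. The 65 probes called for slide became 702 with normexp fitted without marked spots, 590 with normexp on all spots, 2043 in the deposited table, 18 after scaling between arrays, 7 with no filter, 243 with probes well above background on all 18 arrays and 143 with array weights. They became 249 with the conflicting array as HFD, 471 without it, 0 without slide 1, 0 with LFD replicate 6 turned and 0 to 2828 with 1 array left out (2828 without HFD replicate 5, 434 without HFD replicate 1, 20 without HFD replicate 4, 11 without HPD replicate 1, 1 without HPD replicate 4, and 0 without any of 10 others: LFD replicates 1, 2, 4, 5 and 6, HFD replicates 2 and 3, and HPD replicates 2, 3 and 5). With the replicate block the slide test called 0, and the replicate block changed no diet call. The cause was not tested. The slide test with HFD replicates 1 and 6 averaged was not run, since they lie on different slides. Of the 45 correlations between members, 11 passed in Cy5 alone, 9 without slide 1 and 9 without LFD replicates 2 and 6, and 18 to 26 in the other settings. For the correlations, leaving out slide 1 or LFD replicates 2 and 6 was chosen after seeing the data, as was the turned array throughout. The number of arrays, with standard errors of 0.135 to 0.397, limits what could be called.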
